A study of Ceratopteris richardii with 15 samples.

Results

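Of 88641 genes measured in sporophytes of the fern Ceratopteris richardii, 61 kept nearly the same abundance in root tip, leaf tip, shoot tip, root and leaf. They were chosen from the measured values. The mean abundance in the lowest of the 5 tissues had to lie from 30 to under 300 TPM, and the mean in the highest tissue could be at most 1.3 times that in the lowest. TPM is a transcript abundance corrected for length and scaled so that all libraries have the same sum. All plants were wild type RNWT1, raised from spores on MS medium and sampled at 50 days. Root stands for the root without its tip and leaf for the leaf without its tip, and each of the 5 tissues had 3 libraries. A limit of 300 members was not reached. Evenness across tissues is what the members were chosen for, so it is described here without a test.

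A gene whose level is steady across organs is what quantitative expression assays call a reference gene, because the level of a gene of interest is read relative to it. In plants such genes are commonly sought among those for the cytoskeleton, protein synthesis and protein turnover, which all cells need. The organs of ferns extend from single apical cells, so that tips are rich in dividing cells and the tissue behind them in differentiated ones. TPM values are shares of a library. A steady TPM says that the gene kept its share of the measured RNA, and in bulk tissue fewer cells of a type and less RNA per cell cannot be told apart.

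The identifiers follow the naming of the Trinity assembler, and 0 of the 61 members matched the reference table of 36816 genes. The members are therefore given by identifier, without function, position or sequence, and the labelled tissues could not be checked against named marker genes. Among the root libraries, replicate 3 lay away from replicates 1 and 2. Its array quality weight, which limma sets from how closely a library follows the fit, was 0.0764, against 0.756 to 1.73 in the other 14 libraries. Values without it stand beside the results it touches most. The leaf columns could not be tied to single leaf samples and are called replicates a, b and c.

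Evenness of this degree was uncommon at this level of abundance. The level window of 30 to under 300 TPM in the lowest tissue held 2727 genes, of which the members made up 2.24%. Among the members the highest tissue mean was 1.106 to 1.296 times the lowest, with a median of 1.252. The other 2666 genes of the window had a median ratio of 2.41 and a highest ratio of 236.9. The ceiling of 1.2 times held 16 genes, and that of 1.1 times held 0. A ceiling of 1.5 times took in 246 genes, and 912 genes (33.4% of the window) stayed within 2 times.

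**Figure D1:**
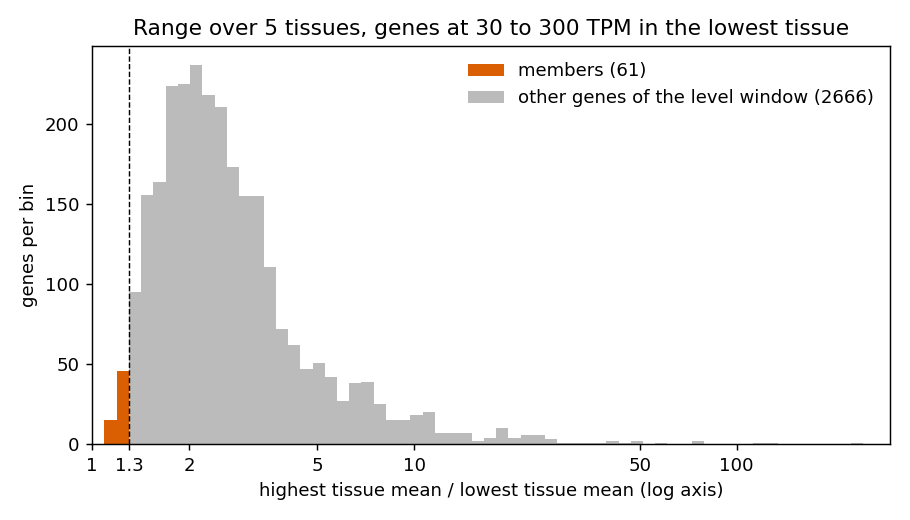
Histogram of the ratio of the highest to the lowest tissue mean (log axis) for genes with a lowest tissue mean of 30 to under 300 TPM, in genes per bin of equal width on the log scale. The 61 members lie left of the dashed line at 1.3 and the 2666 other genes of the level window right of it, with a median of 2.41.

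Tissue pairs differed in how many genes of the window they kept within 1.3 times. Leaf tip and shoot tip did so for 2049 genes (75.1%), root tip and shoot tip for 1567 (57.5%), and root tip and leaf for 613 (22.5%). The 3 tips together kept 937 genes (34.4%). Over 4 tissues the number was 269 without leaf, 173 without root, 145 without root tip, 100 without leaf tip and 81 without shoot tip, against 61 over all 5. Leaf was thus the tissue whose omission from the ceiling added the most genes, and shoot tip the one whose omission added the fewest. The level window still used all 5 tissues, so genes under 30 TPM in the omitted tissue were not counted. These counts are for TPM as deposited and were not made under another scaling of the libraries.

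The 6 members with the smallest coefficient of variation (SD divided by mean) over the 15 libraries had values of 4.72% to 5.15%, against a median of 8.89% over the members. For RT_TRINITY_DN2684_c0_g1 the libraries of root tip held 78.73, 75.4 and 76.2 TPM, those of leaf tip 84.72, 87.39 and 83.73, those of shoot tip 78.14, 77.01 and 78.9, those of root 77.83, 73.6 and 78.1 and those of leaf 78.39, 81.34 and 76.39. All leaf tip libraries were above those of the other tissues, which overlapped one another. The ratio of its highest to its lowest tissue mean, leaf tip to root, was 1.11.

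RO_TRINITY_DN2958_c0_g1 had the smallest ratio of all members, 1.106. Its libraries of root tip held 72.53, 72.95 and 71.31 TPM, those of leaf tip 77.46, 78.03 and 72.52, those of shoot tip 76.89, 76.9 and 70.34, those of root 76.7, 76.13 and 73.4 and those of leaf 69.03, 70.57 and 66.51. Leaf was lowest, and its libraries overlapped with those of shoot tip alone. For RT_TRINITY_DN43308_c1_g1 the libraries of root tip held 54.21, 53.66 and 51.99 TPM, those of leaf tip 59.48, 62.04 and 60.05, those of shoot tip 57.7, 55.52 and 57.27, those of root 58.46, 56.81 and 60.63 and those of leaf 58.87, 56.82 and 56.17. Here root tip was below every other library, and leaf tip overlapped with root alone.

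RT_TRINITY_DN9435_c0_g1 had the lowest level of all members, with a mean of 33.5 TPM over the tissues. Its libraries of root tip held 32.51, 34.5 and 32.98 TPM, those of leaf tip 31.22, 30.57 and 31.46, those of shoot tip 37.13, 34.39 and 34.25, those of root 33.53, 33.8 and 34.26 and those of leaf 33.27, 34.27 and 34.34. Leaf tip was below all other libraries. RT_TRINITY_DN18744_c0_g2, next in level, averaged 35.7 ± 1.24 TPM (root tip), 35.3 ± 0.42 (leaf tip), 34.4 ± 0.693 (shoot tip), 33.9 ± 2.08 (root) and 32.1 ± 0.908 (leaf; SD, n = 3 each). No neighbouring tissues in that order were separated. LA_TRINITY_DN12727_c0_g1 averaged 33.4 ± 0.909 TPM (root tip), 36.6 ± 0.216 (leaf tip), 34.5 ± 1.47 (shoot tip), 32.3 ± 1.37 (root) and 35.5 ± 0.39 (leaf; SD, n = 3 each).

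**Figure D2:**
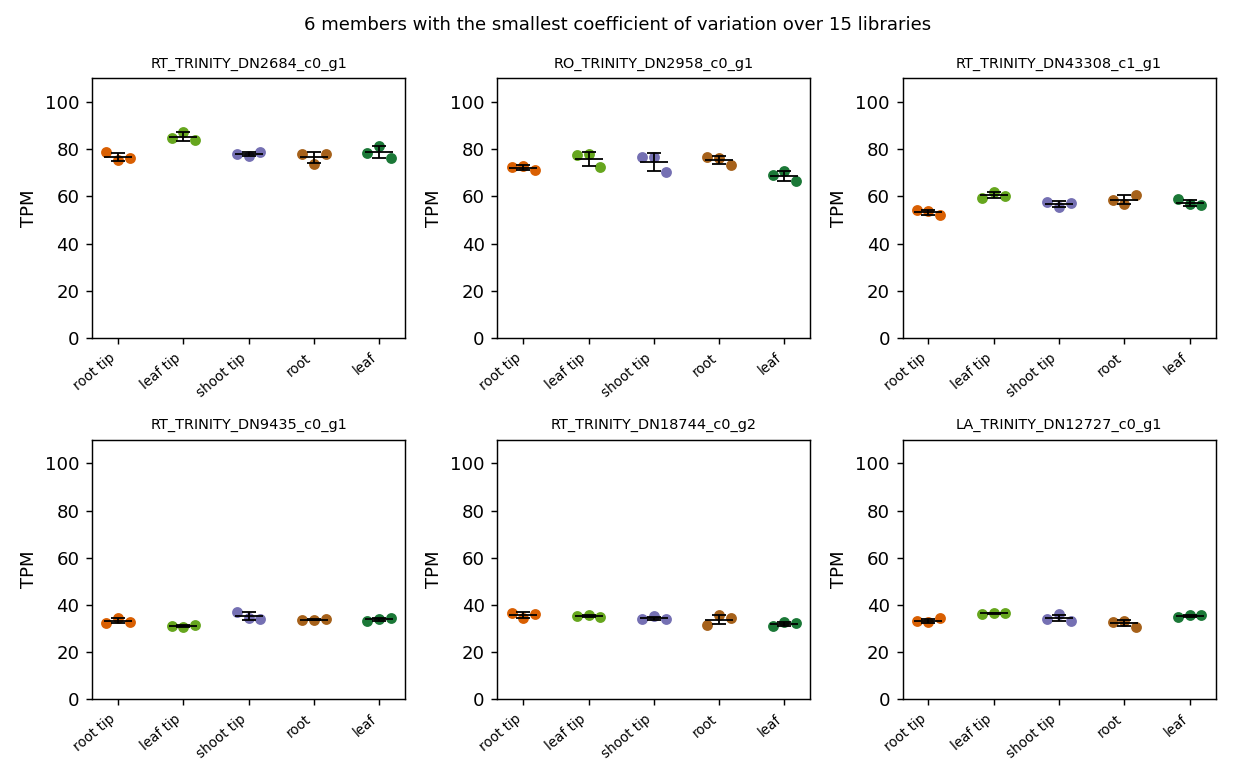
TPM in each library (coloured points) for the 6 members with the smallest coefficient of variation, by tissue, with the mean and SD of the 3 libraries in black. The values of RT_TRINITY_DN2684_c0_g1 run from 73.6 to 87.39 TPM and those of RT_TRINITY_DN9435_c0_g1 from 30.57 to 37.13 TPM.

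The members did not share 1 tissue pattern. The highest tissue mean was in root for 22 members, in root tip for 14, in leaf tip for 13, and in shoot tip and leaf for 6 each. The lowest was in leaf for 22 members, in root tip for 11, in root for 11, in leaf tip for 10 and in shoot tip for 7. Leaf was the lowest tissue of 36.1% of the members and of 47.3% of the other genes of the window. Root was the highest tissue of 36.1% of the members and of 21.8% of the other genes. Root had the higher mean in 44 members and leaf in 17, with a median log2 ratio of root to leaf of 0.09. That direction turned under other scalings, with root higher in 5 and leaf in 56 members after median-ratio scaling and root higher in 16 and leaf in 45 after quantile normalization. Leaf tip was higher than shoot tip in 30 members and lower in 31.

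**Figure D3:**
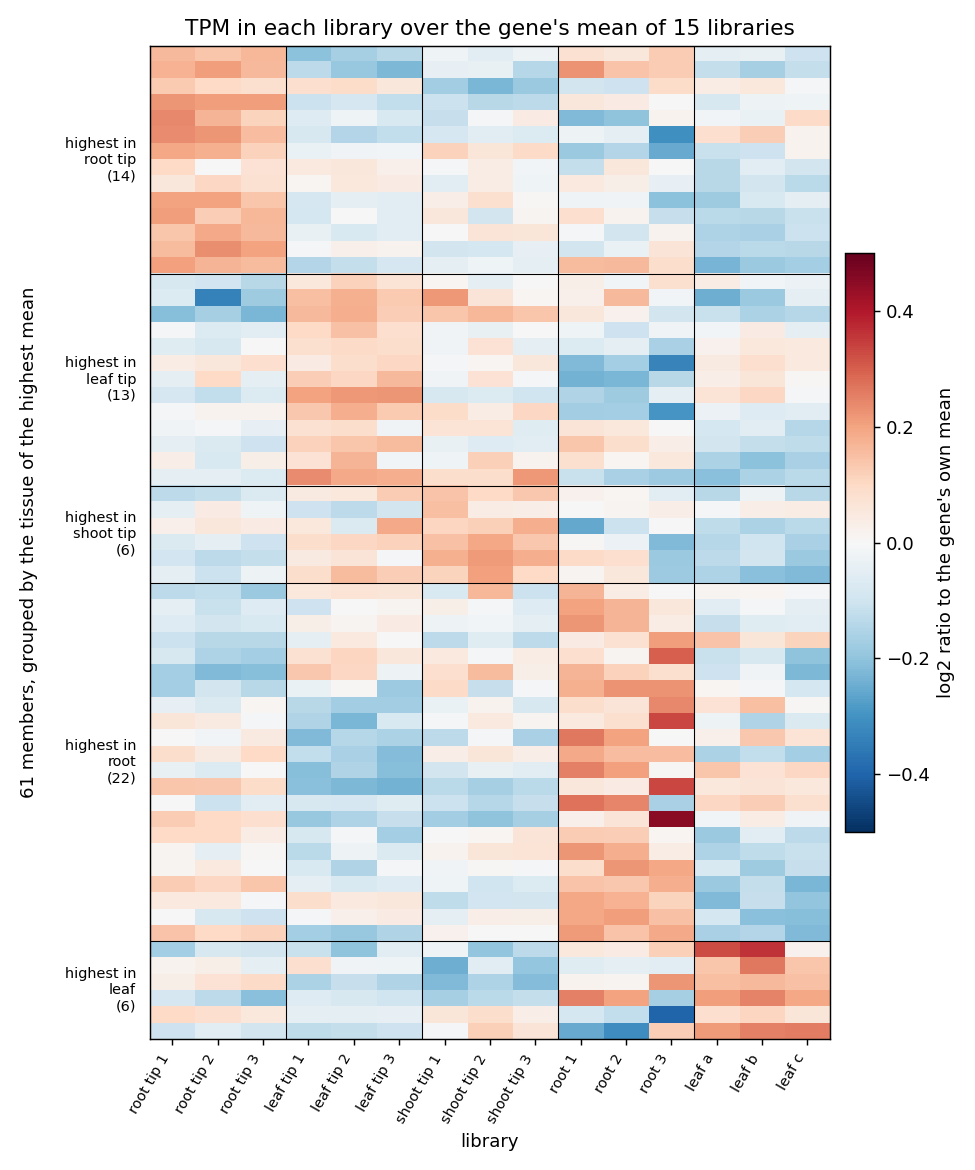
Colour map of the 61 members (rows, grouped by the tissue of the highest mean) in the 15 libraries (columns), as the log2 ratio of TPM to the gene's own mean. Root is the highest tissue of 22 members and leaf of 6, and root replicate 3 is the highest of the 15 libraries in 8 rows and the lowest in 10.

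For each tissue, the member in which it led the next tissue by the largest ratio shows how far an even gene could lean. For root tip this was SHA_TRINITY_DN8636_c0_g1, whose libraries of root tip held 53.58, 56.36 and 55.19 TPM, those of leaf tip 47.8, 48.93 and 48.63, those of shoot tip 45.03, 45.2 and 46.64, those of root 45.08, 46.95 and 50.15 and those of leaf 43.37, 43.71 and 43.62. All root tip libraries were above, and all leaf libraries below, those of every other tissue. For leaf tip it was LA_TRINITY_DN9170_c0_g1, with 199.94, 202.28 and 203.02 TPM there and at most 186.76, a leaf value, elsewhere.

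For shoot tip the lead was largest in LA_TRINITY_DN1678_c0_g12, with 47.39, 48.54 and 47.61 TPM there and at most 44.82, a root value, elsewhere. For root it was largest in RO_TRINITY_DN17211_c0_g2, with 44.57, 46.05 and 46.05 TPM there and at most 42.02, a shoot tip value, elsewhere. In both genes the leading tissue overlapped with no other. For leaf it was largest in RT_TRINITY_DN16552_c1_g1, with 66.49, 68.34 and 68.49 TPM there, 57.23, 62.31 and 60.01 for shoot tip, 53.36, 55.16 and 53.89 for root tip, 52.63, 52.8 and 53.39 for leaf tip and 48.22, 46.31 and 62.45 for root. Leaf was again above all other libraries. Without root replicate 3 the ratio of this gene was 1.43, outside the ceiling.

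For each tissue, the member in which it lay below the next tissue by the largest ratio was found likewise. RT_TRINITY_DN16210_c0_g1 was lowest in root, with 40.7, 42.19 and 37.64 TPM, and held 47.26 to 51.04 TPM in the libraries of the other 4 tissues, which overlapped one another. RO_TRINITY_DN11762_c0_g1 was lowest in leaf, with 34.95, 33.89 and 34.88 TPM, and held 37.02 to 43.85 TPM elsewhere. LA_TRINITY_DN6669_c0_g1 was lowest in root tip, with 60.85, 61.3 and 58.7 TPM, and shoot tip came closest to it with 63.27, 74.94 and 61.95 TPM. In these 3 genes the lowest tissue was below all other libraries.

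RO_TRINITY_DN1774_c0_g1 was lowest in leaf tip, with 104.46, 108.87 and 104.3 TPM, and held 113.41 to 143.97 TPM elsewhere. RT_TRINITY_DN945_c0_g1 was lowest in shoot tip and was the most abundant member. Its libraries of root tip held 303.94, 297.56 and 293.6 TPM, those of leaf tip 294.46, 296.08 and 288.91, those of shoot tip 246.68, 237.0 and 244.44, those of root 260.79, 258.8 and 296.07 and those of leaf 284.79, 288.61 and 276.68. Shoot tip was below every other library. Root replicate 3 was in the range of root tip, while root replicates 1 and 2 were between shoot tip and leaf.

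In their lowest tissue the members were at the same median level as the other genes of the window, 49.7 TPM in both. The lowest tissue mean was under 60 TPM in 42 members (68.9%), against 62.6% of the other genes. It reached 100 TPM in 8.197% of the members, against 15.5% of the other genes. The mean over the tissues was 33.5 to 277.9 TPM among the members. Its median was 54.6 TPM in the members and 91.2 TPM in the other genes. The ceiling holds the mean of a member close to its lowest tissue, so this difference is not read as a trait. The 5 members at 100 TPM or more in the lowest tissue were RT_TRINITY_DN945_c0_g1, SHA_TRINITY_DN1447_c1_g5, LA_TRINITY_DN9170_c0_g1, RO_TRINITY_DN1774_c0_g1 and LA_TRINITY_DN8526_c0_g1, the last being named after its values were seen. SHA_TRINITY_DN1447_c1_g5, second in level, averaged 203.2 ± 5.12 TPM (root tip), 171.7 ± 2.05 (leaf tip), 184.2 ± 4.96 (shoot tip), 169.8 ± 12.3 (root) and 167.5 ± 7.84 (leaf; SD, n = 3 each).

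The rule cut through a continuous range of values. The largest ratios inside the ceiling were 1.296 for both LE_TRINITY_DN3726_c0_g1 and RO_TRINITY_DN6953_c0_g1 (1.270 and 1.217 without root replicate 3), and the smallest outside it were 1.302 for RO_TRINITY_DN877_c0_g1 and 1.303 for LA_TRINITY_DN87293_c0_g1. At the lower limit of the level, RT_TRINITY_DN9435_c0_g1 (lowest tissue mean 31.1 TPM) and RT_TRINITY_DN2507_c0_g1 (31.5 TPM) were just inside. LE_TRINITY_DN38400_c0_g1 (29.5 TPM, ratio 1.23) and RO_TRINITY_DN4372_c0_g1 (29.3 TPM, ratio 1.29) were just outside.

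In the 3 least steady members, 1 library lay away from the other libraries of its tissue. RO_TRINITY_DN6953_c0_g1, with a coefficient of variation of 12.8%, held 70.31, 72.31 and 94.36 TPM in its root libraries, and replicate 3 was the highest of all 15. Its root tip libraries held 75.33, 74.08 and 73.14 TPM, above root replicates 1 and 2, and without replicate 3 its ratio of the highest to the lowest tissue mean was 1.217. LE_TRINITY_DN7533_c0_g1 (12.6%) held 68.5, 70.11 and 55.36 TPM in its leaf libraries, so that replicate c was just below root (56.57, 56.23 and 59.23 TPM) while replicates a and b were above it. LE_TRINITY_DN547_c0_g2 (12.4%) held 42.82, 41.33 and 32.12 TPM in its root libraries, where replicate 3 was in the range of the tips (31.13 to 34.44 TPM) and replicates 1 and 2 in or just above that of leaf (41.66, 42.73 and 41.18 TPM).

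Root was the tissue with the largest coefficient of variation between libraries in 37 of the 61 members (60.7%), against 66.9% of the other genes of the window. Without replicate 3 it was so in 9 members (14.8%), against 18.4% of the other genes, and leaf was then the most frequent, in 19 members. Root replicate 3 exceeded the mean of replicates 1 and 2 by more than 1.2 times in 4 members (RO_TRINITY_DN6953_c0_g1, RT_TRINITY_DN16552_c1_g1, LE_TRINITY_DN3726_c0_g1 and SHA_TRINITY_DN8887_c0_g1). It was below that mean by more than 1.2 times in 5 (LA_TRINITY_DN6024_c0_g1, LE_TRINITY_DN547_c0_g2, SHA_TRINITY_DN1772_c0_g1, LA_TRINITY_DN1678_c0_g12 and RO_TRINITY_DN2486_c0_g1). Of these, SHA_TRINITY_DN8887_c0_g1, LA_TRINITY_DN6024_c0_g1, SHA_TRINITY_DN1772_c0_g1 and RO_TRINITY_DN2486_c0_g1 were named after their values were seen. Together the members beyond 1.2 times either way were 14.8% of all members, against 22.4% of the other genes of the window. The ceiling limits how far replicate 3 could move the root mean of a member, so lower shares among the members are not read as a trait. Root replicates 1 and 2 differed by more than 1.2 times in 0 members.

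Without root replicate 3 the rule gave 58 genes, of which 56 were among the 61 members. The members that left were RT_TRINITY_DN16552_c1_g1 with a ratio of 1.43, RO_TRINITY_DN1774_c0_g1 with 1.34, LA_TRINITY_DN1018_c0_g1 with 1.325, RT_TRINITY_DN2507_c0_g1 with 1.306 and LA_TRINITY_DN6024_c0_g1 with 1.301. The 2 genes that joined were LA_TRINITY_DN2296_c0_g1 with 1.29 and SHA_TRINITY_DN3444_c0_g1 with 1.22. Those among these 7 outside the naming rule were named after their values were seen. Over the 61 members, leaf was then lowest in 21 and root highest in 20.

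Spread between the 3 libraries of a tissue was small. The rule did not use it directly, but a library away from the others shifts the tissue mean that the rule limits. The comparison with the other genes is therefore a description. The median coefficient of variation over the members was 2.17% for root tip, 2.04% for leaf tip, 2.204% for shoot tip, 5.27% for root and 2.36% for leaf. Over the other genes of the window it was 1.79%, 1.78%, 2.01%, 5.43% and 2.497% in the same order. The members' median was above that of the other genes in the 3 tips and below it in root and leaf. The 2 sets were not matched in level outside the lowest tissue. The mean over the tissues had a median of 54.6 TPM in the members and 91.2 TPM in the other genes. In root this order turned without replicate 3, where the median SD on the log2(TPM + 1) scale was 0.0245 in the members and 0.0231 in the other genes. The coefficient of variation of the 5 tissue means had a median of 8.74% over the members.

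Test results across tissues are given for the members as a description. By limma's moderated F test over the 5 tissues on log2(TPM + 1), with Benjamini-Hochberg adjustment over all 39490 genes tested, 61 of 61 members had an adjusted p under 0.05. The same call was made for 95.6% of all genes tested. Since the rule used the same tissue means, nothing is read from this count. The labels do not say that the libraries of a tissue came from separate plants, so the spread in that test may be technical. In 60 of the 61 members the libraries of the highest tissue did not overlap with those of the lowest, as was the case in 97.8% of all genes tested. The exception was LA_TRINITY_DN6024_c0_g1, where root held 120.24, 117.78 and 89.01 TPM and shoot tip 92.36, 90.31 and 91.83. Without root replicate 3 the highest and the lowest tissue did not overlap in 61 of the 61. The share over all genes without that replicate was not computed, so nothing is read from this count either.

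Ordering the 5 tissues of each member from high to low gives 4 steps between neighbours. The number of members in which the libraries of 0 neighbours were separated was 4 (RT_TRINITY_DN18744_c0_g2, LE_TRINITY_DN547_c0_g2, LA_TRINITY_DN1018_c0_g1 and LA_TRINITY_DN87912_c0_g1). There was 1 separated step in 25 members, 2 in 24 and 3 in 7. Without root replicate 3, which leaves 2 root values to overlap, there were 0 separated steps in 2 members (RT_TRINITY_DN18744_c0_g2 and LA_TRINITY_DN87912_c0_g1), 1 in 21, 2 in 16, 3 in 21 and 4 in 1. All 4 steps were separated in SHA_TRINITY_DN581_c0_g1 alone, with 44.25, 45.73 and 44.09 TPM for leaf tip, 42.96, 41.37 and 43.26 for shoot tip, 40.14, 40.8 and 40.81 for root tip, 39.52, 38.51 and 38.78 for leaf and 35.72, 35.82 and 32.83 for root. LA_TRINITY_DN87912_c0_g1 and SHA_TRINITY_DN581_c0_g1 were named after their values were seen. Of the 10 pairs of tissues, a median of 7 per member did not overlap. Steps and pairs were not counted over other genes, so whether the members differ from them was not tested.

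Summed over the members, the share of the libraries was 0.411% ± 0.00317 for root tip, 0.401% ± 0.00170 for leaf tip, 0.396% ± 0.00256 for shoot tip, 0.409% ± 0.00302 for root and 0.395% ± 0.00463 for leaf (SD, n = 3 each). The geometric mean of the members ranged from 56.5 TPM (leaf replicate c) to 60.4 TPM (root replicate 1), a ratio of 1.07. The median log2 ratio of the members to their own means lay between -0.08 (leaf replicate a) and 0.05 (root replicate 1). For the other genes of the window this library median lay between -0.43 (leaf replicate c) and 0.13 (root tip replicate 1). Over those other genes leaf and root were low and root tip high, a difference that the choice of the members removes.

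**Figure D4:**
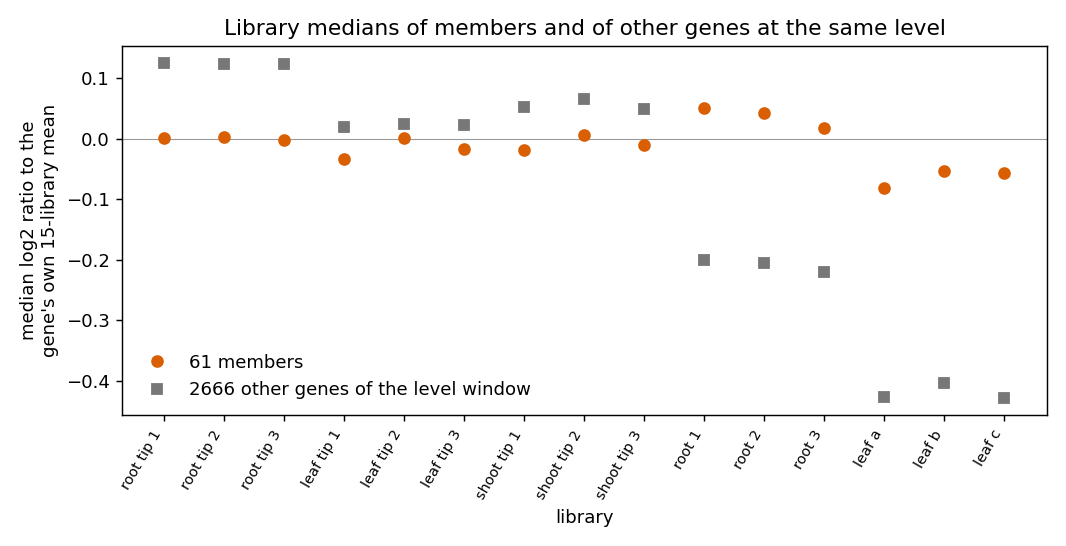
Median over genes of the log2 ratio of TPM to the gene's own 15-library mean, for each library, in the 61 members (circles) and the 2666 other genes of the level window (squares). The members stay between -0.08 and 0.05, while the other genes are between -0.43 and -0.40 in the leaf libraries and between 0.12 and 0.13 in the root tip libraries.

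The ratio of 1 member to another is free of the scaling of the libraries, because the scaling cancels. Over the 1830 pairs of members the SD of the log2 ratio across the 15 libraries had a median of 0.17. The most constant ratio was that of LA_TRINITY_DN5975_c0_g1 to LE_TRINITY_DN5766_c0_g1, with an SD of 0.041, and it ran from 1.57 to 1.71. Both genes were highest in root, followed by root tip and shoot tip. The least constant ratio, of LA_TRINITY_DN9869_c0_g1 to LE_TRINITY_DN3726_c0_g1, had an SD of 0.31 and ran from 0.476 to 0.926. The value of 0.476 was that of root replicate 3, with 50.43 and 105.94 TPM. Here the first gene was highest in leaf tip and the second in root. Without root replicate 3 the second gene was highest in root tip. The first 3 of these 4 genes were named after their values were seen. Averaged over all its pairs, RO_TRINITY_DN2958_c0_g1 had the smallest SD (0.13) and RT_TRINITY_DN16552_c1_g1 the largest (0.23).

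Which genes count as even depended on the scaling of the libraries. Median-ratio scaling divides each library by the median, over genes, of its ratio to the geometric mean of all libraries, here over the 37319 genes above 0 in every library. Its factors averaged 1.01 ± 0.00471 for root tip, 1.22 ± 0.00224 for leaf tip, 1.21 ± 0.00326 for shoot tip, 0.922 ± 0.0745 for root and 0.733 ± 0.0158 for leaf (SD, n = 3 each). All genes of a library move alike by its factor. After this scaling the members had ratios of the highest to the lowest tissue mean of 1.33 to 2.13, with a median of 1.66. Of the members, 0 met the rule. The members lay within 1.3 times as deposited, so the gap between the factors of leaf tip and leaf left little room for another outcome. The rule then gave 153 other genes.

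After that scaling leaf was the highest tissue in 56 of the 61 members and root in 5 (LA_TRINITY_DN5975_c0_g1, LE_TRINITY_DN282_c0_g1, RO_TRINITY_DN250_c0_g2, RO_TRINITY_DN3752_c0_g1 and SHA_TRINITY_DN3907_c0_g1, named after their values were seen). The lowest tissue was leaf tip in 31, shoot tip in 27 and root tip in 3. All 61 members were higher in leaf than in leaf tip, with a median ratio of leaf to leaf tip of 1.60, while the deposited values had a median ratio of leaf tip to leaf of 1.03. After quantile normalization, which gives all libraries the same distribution of values, 127 genes met the rule. Leaf was then the highest tissue in 34 of the 61 members and the lowest in 0. The 127 genes held 31 of the members, which is 50.8% of the members and 24.4% of the 127 genes.

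Scaling to the 2672 genes at 30 TPM or more in every library, an alternative chosen after seeing the data, gave 146 genes, of which RO_TRINITY_DN10396_c0_g1 and RO_TRINITY_DN16300_c0_g1 were members. These 2 were named after their values were seen. As deposited, RO_TRINITY_DN10396_c0_g1 averaged 109.3 ± 1.89 TPM in its highest tissue, root tip, and 88.4 ± 1.83 TPM in its lowest, leaf (SD, n = 3 each). RO_TRINITY_DN16300_c0_g1 averaged 57.4 ± 1.69 TPM in root tip, also its highest, and 46.8 ± 0.465 TPM in leaf, also its lowest (SD, n = 3 each). Which scaling follows the amount of RNA per cell was not tested.

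**Figure D5:**
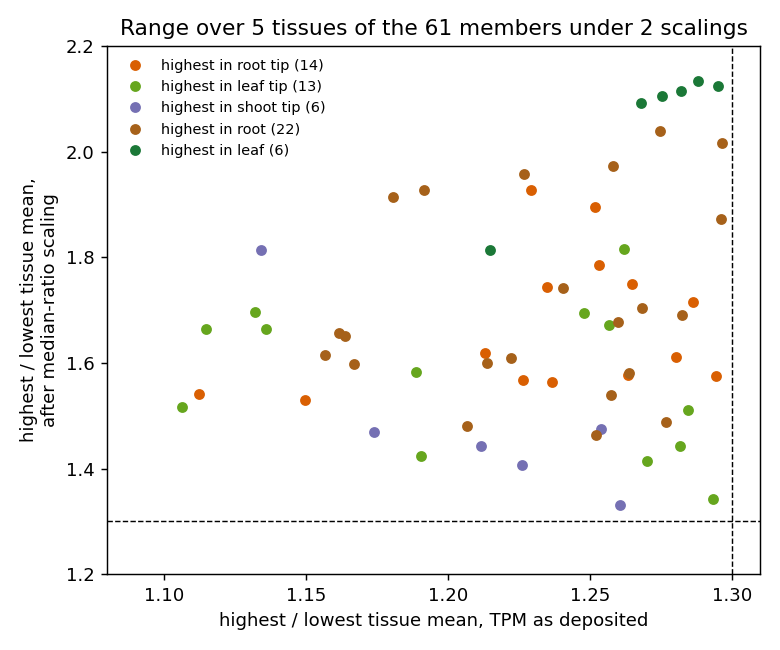
Ratio of the highest to the lowest tissue mean for each of the 61 members, as deposited (x axis) and after median-ratio scaling (y axis), coloured by the tissue that is highest as deposited. All points are left of 1.3 on the x axis, as the rule requires, and between 1.33 and 2.13 on the y axis, above the dashed line at 1.3.

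Each identifier opens with letters that recur as tissue codes in the column names. They were RO in 16 members (26.2%, against 18.9% of the other genes of the window), LA in 14 (23.0%, against 25.1%), RT in 12 (19.7%, against 19.8%), SHA in 10 (16.4%, against 19.5%) and LE in 9 (14.8%, against 16.7%). Over all genes of the series the shares were 32.5% for RO, 23.1% for LA, 12.1% for RT, 21.4% for SHA and 10.9% for LE. The share of RO among the members was thus above that of the window and below that of all genes. No assembly cluster (the same prefix, DN number and c number) held more than 1 member.

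A further gene of the same assembly cluster was listed for 6 members (9.84%), against 10.7% of the other genes of the window, and none of these mates was itself a member. All genes in this paragraph were named by their clusters. RO_TRINITY_DN2486_c0_g1 averaged 108.6 TPM in root tip, its highest tissue, and 86.8 TPM in root, its lowest (leaf tip without root replicate 3). Its mate RO_TRINITY_DN2486_c0_g2 averaged 213.2 TPM in root tip and 122.8 TPM in leaf, a ratio of 1.74. The member SHA_TRINITY_DN6968_c0_g2 was highest in shoot tip, while its mate SHA_TRINITY_DN6968_c0_g1 was highest in root tip (32.8 TPM) and lowest in leaf (10.01 TPM). The mates of LE_TRINITY_DN1720_c0_g2 and RO_TRINITY_DN250_c0_g2 averaged at most 11.3 TPM and 8.89 TPM in any tissue. Those of LA_TRINITY_DN9170_c0_g1 and RT_TRINITY_DN16552_c1_g1 averaged at most 0.49 TPM and 0.507 TPM. Whether reads were shared between genes of a cluster was not tested.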

How the data were processed

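RNA of 15 libraries (5 tissues, 3 libraries each) was analysed. The authors deposited 1 table of TPM with 2 decimals, scaled to the same sum per library, so depth is unknown and no counting interval is given. Trimming and quantification used Trim Galore 0.5.0, with Bowtie2 2.3.4.3 as well as RSEM 1.3.2, per the submitters' processing notes. Settings and genome build are not given in the sources used here. The number of columns that belong to no sample was 0. No identifier matched the reference table of assembly GCA_020310875.1, so lists of common reference gene families were not counted. The members, lists and rules were chosen with earlier results of these data known.

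Tissue means, ratios and coefficients of variation were computed from TPM as deposited (Python 3.11.15, pandas 2.3.3). For the F test, log2(TPM + 1) of genes with at least 1 TPM in 3 libraries was fitted in limma 3.58.1 (R 4.3.3; empirical Bayes with an intensity trend, 1 mean per tissue, 10 residual degrees of freedom). The fit was tested on simulated data. Genes were named for the smallest and largest coefficient of variation, the highest and lowest level, the lead or deficit in each tissue and closeness to the limits of the rule. Alternatives were other ceilings, levels, scalings, pseudocounts and filters, the tissue median, the trend, quality weights, each library left out, and the replicate block. Figures were drawn with matplotlib 3.10.9.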

Additional observations from a re-analysis of the deposited data

How the results depend on the processing

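The number of even genes, 61, moved with the definition. A ceiling of 1.2 times gave 16 genes, one of 1.5 times gave 246, and a lowest tissue mean of at least 10 TPM with no upper limit gave 186. Rescaling gave 153 genes with median-ratio scaling, 127 with quantile normalization and, chosen after seeing the data, 146 with median-ratio scaling over genes at 30 TPM or more in every library. The tissue median in place of the mean gave 64 genes, 57 of them members, and leaving out each library in turn gave 58 to 64. The 22 members highest in root became 5 under median-ratio scaling. The 22 lowest in leaf became 0 under median-ratio scaling and 0 under quantile normalization. Under median-ratio scaling the 0 followed from the factors of leaf and leaf tip together with the ceiling. Under median-ratio scaling the summed TPM of the members was 4067 for root tip, 3300 for leaf tip, 3278 for shoot tip, 4453 for root and 5397 for leaf. As deposited it was 4107, 4011, 3964, 4088 and 3953 TPM.

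The count of members called by limma's F test, 61, was 57 without the intensity trend, where 95.37% of all genes tested were called. It was 60 without the filter (75.12% of all genes tested) and 60 after quantile normalization (94.12%). When each library was left out in turn it was 58 to 61 (94.55% to 96.04%). The call held through all 15 leave-outs in 57 members. The share of all genes tested that kept it through all 15 was not computed, so nothing is read from this count. LA_TRINITY_DN6024_c0_g1, LA_TRINITY_DN6669_c0_g1, RO_TRINITY_DN2958_c0_g1 and RT_TRINITY_DN18744_c0_g2 lost it in at least 1, with limma adjusted p up to 0.0819, 0.115, 0.103 and 0.133. A fit with the replicate block was possible over the 4 tissues other than leaf. It called 54 members and 91.36% of all genes tested. The same tissues without the block also gave 54 members, and 91.74% of all genes tested. Deviations of libraries with the same number in different tissues had r = -0.0144 to 0.0257 over 18 pairs, across genes. Those with different numbers had r = -0.0266 to 0.0223 over 36 pairs. The numbers were therefore not taken to pair the libraries. Whether they mark a shared plant or day is not stated. Causes of these changes were not tested, and the depth behind the values is unknown.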

Other observations

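Even genes also occurred outside the level window. Within 1.3 times over the 5 tissues there were 24 of 5999 genes (0.40%) with a lowest tissue mean of 1 to under 3 TPM, 73 of 7397 (0.987%) at 3 to under 10 TPM and 124 of 5711 (2.17%) at 10 to under 30 TPM. In the window the counts were 56 of 2309 genes (2.43%) from 30 to under 100 TPM and 5 of 418 (1.196%) from 100 to under 300 TPM. At 300 TPM or more it was 1 of 99 genes, LA_TRINITY_DN2345_c0_g2, named after its values were seen. This gene averaged 1324 ± 11.9 TPM (root tip), 1214 ± 3.13 (leaf tip), 1309 ± 11.3 (shoot tip), 1249 ± 136 (root) and 1066 ± 8.69 (leaf; SD, n = 3 each), a ratio of 1.24.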
